A study of Mus musculus with 4 samples.

Results

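The Ikaros zinc finger genes, the E protein genes, the ID genes that antagonise E proteins, and the oncogenic partners Lyl1 and Lmo2 were followed in thymus RNA. The 10 genes were Ikzf1, Ikzf2, Ikzf3, Tcf3, Tcf4, Tcf12, Id2, Id3, Lyl1 and Lmo2, taken by symbol, and all 10 were present among the 10598 genes of the deposited table. The thymuses came from C57BL/6J mice, either wild type or lacking Camk2g (CAMKIIgamma-/-), the gene for the gamma chain of calcium/calmodulin-dependent protein kinase II. Mice of both genotypes had received 1 intraperitoneal injection of 75 mg/kg N-methyl-N-nitrosourea (MNU), an alkylating mutagen that induces T-cell lymphoma, at 4 to 5 weeks of age, or vehicle, with a labelled treatment time of 6 months for either. The 4 groups are called vehicle wild type, MNU wild type, vehicle knockout and MNU knockout. The design asked how deletion of the kinase alters thymic gene expression with MNU, which it calls the malignant condition, and without it. Each of the 4 groups was 1 library, so no difference below has a replicate check and no p-value is given. The sex of the mice, the way in which Camk2g was disrupted, whether tissue was pooled and whether a given MNU thymus held a tumour are not stated in the labels.

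E proteins are basic helix-loop-helix factors that bind E-box DNA and drive the gene programme of developing T cells. ID factors lack the basic region, pair with E proteins and keep them off DNA, and Id3 is induced by T-cell receptor and pre-T-cell receptor signals. Ikaros (Ikzf1), Helios (Ikzf2) and Aiolos (Ikzf3) are zinc finger factors that recruit chromatin repressors, and loss of Ikaros function is a recurrent event in mouse thymic lymphoma, often with NOTCH activation. LYL1 pairs with E proteins, and LMO2 bridges such pairs to other factors. Both are normally silenced as T cells are specified, and both can cause T-cell leukaemia when they stay on.

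The libraries summed to between 32911362 and 34836257 normalised counts. Camk2g stood at 2749 in vehicle wild type and 3173 with MNU, against 488.7 in vehicle knockout and 29.7 in MNU knockout. The library labelled vehicle knockout thus kept 17.8% of the level in vehicle wild type, where MNU knockout kept 1.08%, so its target gene goes against the label of a full deletion. It is called vehicle knockout after that label throughout. The MNU wild type was the outlying library, with Spearman's rho across genes of 0.838 to 0.868 against the other 3 libraries, which had rho of 0.981 or 0.982 among themselves. The knockout library without MNU lay part of the way towards it. For the 42 genes with over 1000 units in MNU wild type and over 20-fold more there than in both vehicle wild type and MNU knockout, it held a median of 15.4% of the excess (5th to 95th percentile 13.9% to 18.5%). Its Camk2g above the level in MNU knockout was 14.6% of the excess of MNU wild type, inside that range. Results that use that library are therefore given also with this share of the wild-type MNU profile subtracted from it, and against a comparison of MNU knockout to vehicle wild type, which leaves it out. T cell markers were present in all 4 libraries, with the 14 measured genes summing to between 223517 and 341699. Thymic epithelial markers (9 of 9 measured) summed to between 49937 and 66936 in 3 libraries and to 1305 in MNU wild type, where Foxn1, the defining epithelial transcription factor, was listed at 0.

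**Figure D1:**
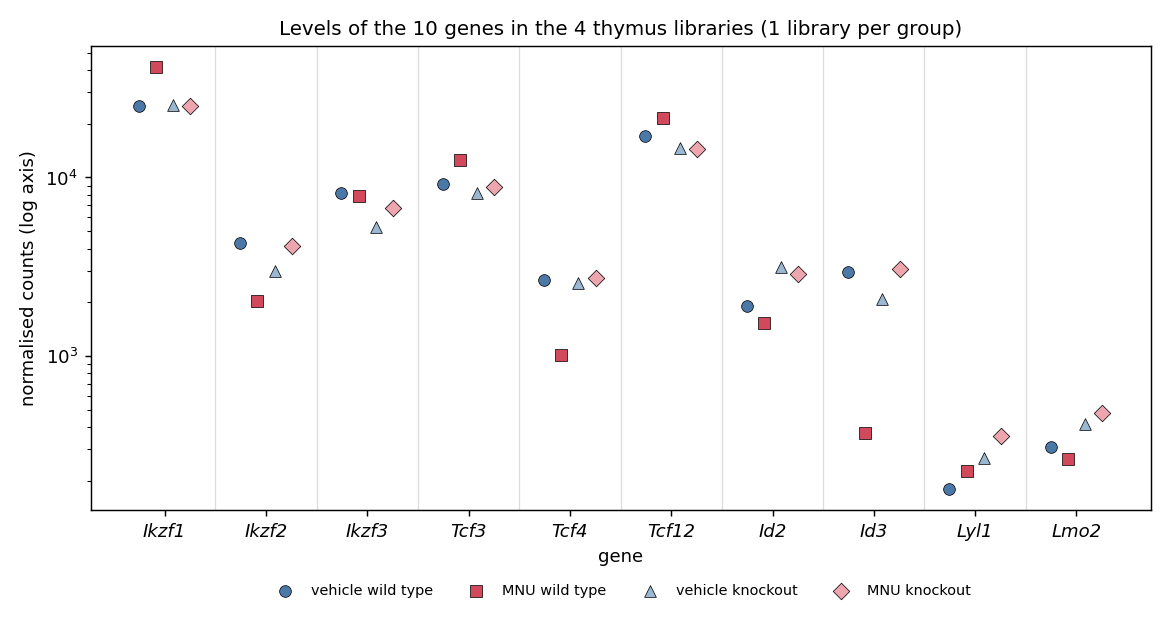
Normalised counts (log axis) of the 10 genes in each of the 4 libraries, 1 point per library. Id3, Tcf4 and Ikzf2 are lowest in MNU wild type (squares), at 371, 1008 and 2037, while Ikzf1 is highest there at 41554.

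Id3 differed most of the 10 genes. Its normalised counts were 2951 in vehicle wild type, 371 in MNU wild type, 2077 in vehicle knockout and 3087 in MNU knockout. The MNU wild type was thus the low library, at 12.6% of the vehicle wild-type value, and the other 3 lay within 1.49-fold of each other. The ratio was 7.96-fold between the wild-type libraries (log2 difference -2.96 on the log2(value + 10) scale used for all differences) and 8.33-fold between the MNU libraries of both genotypes. In the wild-type comparison Id3 lay at the 3.45th percentile of 10587 genes. The vehicle knockout was the lowest of those 3, at the 2.18th percentile of all genes against vehicle wild type. In knockout mice the level with MNU was 1.49-fold that without, at the 98.5th percentile. After subtraction of the wild-type MNU share the knockout level without MNU was 2387, still below the levels in vehicle wild type and MNU knockout.

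Id2, the ID factor of innate lymphocytes and dendritic cells, followed the genotype more than MNU. It stood at 1899 and 1530 in vehicle and MNU wild type, and at 3156 and 2871 in vehicle and MNU knockout. Both knockout libraries were above both wild-type libraries, by 1.66-fold without MNU and 1.88-fold with MNU, and neither ratio reached 2-fold. With the share subtracted the ratio without MNU was 1.82. Markers of NK and innate lymphoid cells (6 of 11 measured) summed to 2563 and 2012 in the wild types and 4920 and 4903 in the knockouts. All 6 were higher in both knockouts than in vehicle wild type. In MNU wild type they did not share 1 direction, since 4 were at least 2-fold below vehicle wild type and 1 above. Klrk1, an activating receptor of NK cells, stood at 316, 1.75, 1016 and 858 in vehicle wild type, MNU wild type, vehicle knockout and MNU knockout. Prf1, the pore-forming protein of cytotoxic granules, stood at 129, 484, 234 and 219 and was named after its values were seen. Gzma, named in the same way, stood at 1363, 1491, 1884 and 2242 and made up most of the sum in MNU wild type. None of these 6 markers was listed at 0 in any library, and their part in the Id2 difference was not tested. In RNA of whole thymus, fewer cells of a type and less RNA per cell cannot be told apart, here and for every gene below.

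Id3 and Id2 held different shares of their summed level in each library. Id1 and Id4 were measured too but are not part of any ID sum here. Levels of different genes were compared only per kb of the longest GENCODE transcript of each, since longer transcripts collect more reads. On that scale Id3 made up 70.5% of the summed Id2 and Id3 level in vehicle wild type, 27.2% in MNU wild type, 50.4% in vehicle knockout (51.6% with the share subtracted) and 62.4% in MNU knockout. The summed ID level was 53.1% of the summed E protein level (Tcf3, Tcf4 and Tcf12) in vehicle wild type and 13.8% in MNU wild type. It was 59.7% in vehicle knockout (72.6% with the share subtracted) and 69.4% in MNU knockout. With the union of exons as the length, the ID to E protein percentages were 55.1%, 12.9%, 59.5% and 71% in that order of libraries. These are RNA levels, and protein pairing was not measured.

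**Figure D2:**
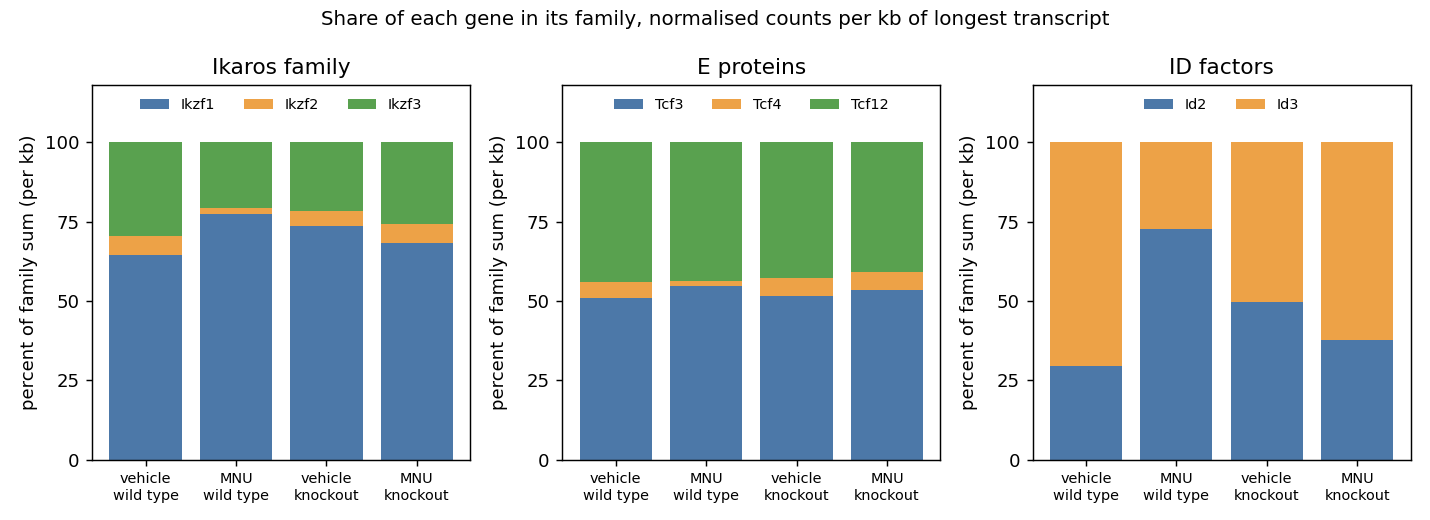
Percent of each gene in a summed level, from normalised counts per kb of the longest transcript, 1 bar per library. The panels sum Ikzf1, Ikzf2 and Ikzf3 (Ikaros family), Tcf3, Tcf4 and Tcf12 (E proteins), and Id2 and Id3 (ID factors). Id3 makes up 70.5% of the ID sum in vehicle wild type and 27.2% in MNU wild type, while Tcf3 stays between 50.8% and 54.7% of the E protein sum in all 4 libraries.

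The promoters of Id3, Id2 and Lyl1 are shown because Id3 was the gene that differed most and the other pair were higher in both knockouts, and because all 3 encode helix-loop-helix proteins that act in the E-box network. Each sequence holds the 250 bases before the annotated start in RefSeq (GRCm38.p6, a different build from the mm9 named for these data), read 5′ to 3′ on the gene's strand, with matches to the general E-box CANNTG in capitals. The windows are chr4:136143572-136143821, plus strand, for Id3, chr12:25096093-25096342, minus strand, for Id2, and chr8:84701207-84701456, plus strand, for Lyl1.
Id3: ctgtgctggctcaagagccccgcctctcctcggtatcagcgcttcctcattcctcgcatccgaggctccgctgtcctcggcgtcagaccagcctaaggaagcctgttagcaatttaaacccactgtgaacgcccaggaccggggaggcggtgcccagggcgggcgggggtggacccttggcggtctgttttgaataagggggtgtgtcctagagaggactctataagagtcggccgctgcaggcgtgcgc
Id2: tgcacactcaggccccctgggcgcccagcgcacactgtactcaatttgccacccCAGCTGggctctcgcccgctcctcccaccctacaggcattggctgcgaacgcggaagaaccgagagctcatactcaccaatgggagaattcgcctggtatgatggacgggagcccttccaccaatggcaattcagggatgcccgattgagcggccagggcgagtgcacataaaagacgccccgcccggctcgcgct
Lyl1: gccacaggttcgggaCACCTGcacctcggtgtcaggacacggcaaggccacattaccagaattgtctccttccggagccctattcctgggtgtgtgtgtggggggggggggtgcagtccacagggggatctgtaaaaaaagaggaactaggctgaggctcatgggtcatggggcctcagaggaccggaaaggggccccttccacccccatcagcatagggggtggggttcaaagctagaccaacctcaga
The Id2 window held 1 E-box, CAGCTG, and the Lyl1 window held 1, which reads CAGGTG on the opposite strand. The Id3 window held 0. CANNTG is its own reverse complement in form, so each match was counted once, and the CAGGTG and CAGCTG searches overlap it. Of 32851 RefSeq promoter windows of this length, 66.2% held CANNTG, 17.2% held CAGGTG on either strand and 13% held CAGCTG. Promoter windows were matched for 6 of the 10 genes (9 windows), and 0 of the 9 held the Ikaros core TGGGAA on either strand, against 21.6% of all windows. A match or its absence describes these letters in this window only.

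E protein genes diverged from each other in MNU wild type. Tcf4 (E2-2), the E protein needed for plasmacytoid dendritic cells, stood at 2671 in vehicle wild type, 1008 in MNU wild type, 2562 in vehicle knockout and 2746 in MNU knockout. Its level in MNU wild type was 37.7% of that without, a log2 difference of -1.40, and the remaining 3 libraries were within 1.07-fold of each other. With the share subtracted its level in vehicle knockout was 2844. Markers of other cells that can express Tcf4 followed it in part. B cell markers (8 of 11 measured) did not, and summed to 3718, 2827, 6087 and 10083 in vehicle wild type, MNU wild type, vehicle knockout and MNU knockout, with Ms4a1 (CD20) at 413, 10.1, 648 and 1248. Of these 8, 5 were at least 2-fold lower with MNU in wild type and 1 higher, the kinase gene Blk, at 254 and 796, named after its values were seen. Plasmacytoid dendritic cell markers (7 of 10 measured) summed to 39651, 9547, 36377 and 45960 in the same order. Most of that sum was Ccr9, which thymocytes express too and which is named here after its values were seen (31047 in vehicle wild type). Spib, a factor of plasmacytoid dendritic cells and B cells, stood at 804, 94.7, 907 and 1529. None of the B cell or plasmacytoid markers measured was listed at 0, and their part in the Tcf4 difference was not tested.

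Tcf3 (E2A) and Tcf12 (HEB), the main E proteins of thymocytes, went the other way. Tcf3 stood at 9241 and 12509 in vehicle and MNU wild type, 8237 in vehicle knockout and 8793 in MNU knockout. Tcf12 stood at 17123 and 21402 in the wild types and at 14613 and 14349 in the knockouts. The MNU wild type was the highest library for both, by 1.35-fold and 1.25-fold over vehicle wild type, and both knockouts were below both wild types. None of these differences reached 2-fold. Per kb, Tcf3 was the leading E protein in every library, at 50.8% to 54.7% of the summed level with the longest transcript as length, followed by Tcf12 at 40.8% to 44.1%, and Tcf4 at 1.52% to 5.74%. The row for Tcf3 was read as E2A and that for Tcf4 as E2-2, the present use of these symbols. The RefSeq gene table also lists Tcf3 as an older name of Tcf7l1 and Tcf4 as one of Tcf7l2, which are separate genes not analysed here.

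Among the Ikaros family, Ikzf1 and Ikzf2 moved in opposite directions with MNU in wild type. Ikzf1 stood at 25211 in vehicle wild type, 41554 in MNU wild type, 25541 in vehicle knockout and 25161 in MNU knockout. The MNU wild type was the high library by 1.65-fold, under the 2-fold rule, and the other 3 differed from each other by at most 1.02-fold. With the share subtracted the knockout level without MNU was 22632. The values are per gene, so short Ikaros isoforms without the DNA-binding fingers, which block the full-length protein, are not separated from it.

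Ikzf2, which encodes Helios and marks regulatory T cells and strongly signalled thymocytes, stood at 4271 in vehicle wild type, 2037 in MNU wild type, 2984 in vehicle knockout and 4149 in MNU knockout. It was 2.10-fold lower with MNU in wild type (log2 difference -1.06), and 2.04-fold higher in MNU knockout than in MNU wild type. In knockout mice the level was 1.39-fold higher with MNU than without (log2 difference 0.47, or 0.39 with the share subtracted). Regulatory T cell markers other than Foxp3, which was not analysed here, did not share 1 direction in wild type. Of 7 measured, 2 were at least 2-fold higher with MNU and 2 lower, among them Gpr83 (84.3 against 1196) and Tnfrsf4, a co-stimulatory receptor (418 against 81.7).

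Ikzf3, which encodes Aiolos, was the only Ikaros gene with both knockouts outside the range of both wild types in the values as deposited. It stood at 8143 and 7850 in vehicle and MNU wild type, and at 5304 and 6702 in vehicle and MNU knockout. The knockouts were lower, by 1.54-fold without MNU and 1.17-fold with MNU. With the share subtracted the knockout level without MNU was 4842. Per kb, Ikzf1 held 64.5% to 77.3% of the summed Ikzf1, Ikzf2 and Ikzf3 level across the libraries. Ikzf3 held 20.6% to 29.4% and Ikzf2 held 2.11% to 6.25%. Ikzf5, which was also measured, is not part of that sum.

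Lyl1 and Lmo2 were the members with the lowest normalised counts. Lyl1 stood at 179 in vehicle wild type, 228 in MNU wild type, 270 in vehicle knockout and 357 in MNU knockout. Lmo2 stood at 309, 265, 415 and 480 in the same order. For both genes the knockouts were above both wild types, and MNU knockout was the highest library, at 1.99-fold and 1.55-fold the level of vehicle wild type. Neither passed 2-fold in any comparison, and in MNU wild type, the library that stood apart, both were within 1.27-fold of vehicle wild type. Both genes are also expressed in myeloid, B and endothelial cells. Macrophage markers (8 of 9 measured) summed to 26091 and 41061 in the wild types and 40729 and 51194 in the knockouts, without and with MNU. Endothelial markers (5 of 9 measured) summed to 8204, 9224, 7964 and 7420 in the order vehicle wild type, MNU wild type, vehicle knockout and MNU knockout. The knockouts were thus above the wild types for the B cell sum given above, overlapped the wild types for macrophages, and were below them for endothelial cells. The part of these cells in the Lyl1 and Lmo2 levels was not tested.

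Counted by comparison, Ikzf2, Tcf4 and Id3, 3 of the 10 genes, were 2-fold or more lower with MNU in wild type and 0 were higher. Of all 10587 genes tested 14.2% were lower and 7.14% higher, 21.3% in either direction. The median log2 difference was -0.13 over the 10 genes and -0.01 over all genes. Between the MNU libraries the same 3 genes were at least 2-fold higher in knockout than in wild type, and 0 were lower. Of all genes 15.0% were higher, 7.37% lower and 22.3% either. These comparisons share the wild-type MNU library, so the second count is not separate evidence. In knockout mice 0 of the 10 genes differed 2-fold with MNU (3.28% of all genes), with log2 differences between -0.14 for Id2 and 0.57 for Id3. Without MNU, 0 of the 10 differed 2-fold between the genotypes (2.95% of all genes), and differences ran from -0.62 for Ikzf3 to 0.73 for Id2. The MNU knockout against vehicle wild type also gave 0 of 10 (2.67% of all genes), with 0.96 for Lyl1 the largest. With the share subtracted the counts in the 2 comparisons that use vehicle knockout were 0 of 10 as well.

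**Figure D3:**
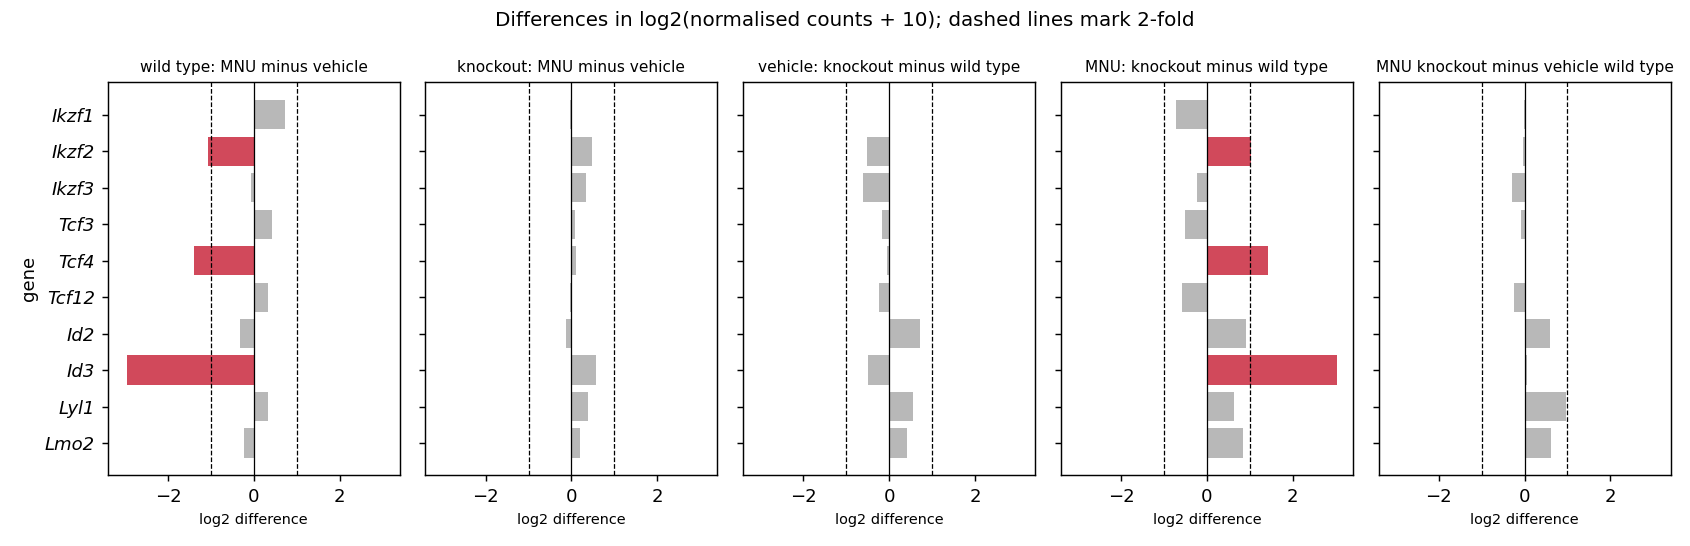
Log2 differences of the 10 genes in the 5 comparisons, on the log2(normalised counts + 10) scale, with dashed lines at 2-fold and red bars for differences of at least 2-fold. Id3, Tcf4 and Ikzf2 pass the lines downwards for MNU in wild type (-2.96, -1.40 and -1.06) and upwards for MNU knockout against MNU wild type (3.02, 1.44 and 1.02).

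Ordered by genotype alone, 6 of the 10 genes had both knockout libraries outside the range of both wild-type libraries, against 30.0% of all genes. Id2, Lyl1 and Lmo2 were above (15.3% of all genes) and Ikzf3, Tcf3 and Tcf12 below (14.7% of all genes). This order rests in part on the library labelled vehicle knockout, and the 6 differences are all under 2-fold within a treatment. With the wild-type MNU share subtracted 8 of the 10 genes had this order, against 41.0% of all genes. The added genes were Ikzf1, at 25161 in MNU knockout against 25211 in vehicle wild type, and Tcf4, at 2746 against 2671.

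Other genes of the families and their partners were described from lists chosen with earlier results known. Of the other family genes, 4 of 11 were measured. Lmo4, an LMO2 relative, stood at 2905 in vehicle wild type, 18364 in MNU wild type, 5481 in vehicle knockout and 2714 in MNU knockout. The subtraction brought its knockout level without MNU to 3141, so its 2-fold difference with MNU in knockout (log2 difference -1.01) rested on that library. Id4 stood at 211, 4.54, 476 and 203 in that order of libraries. Id1 (373 and 277 in the wild types) and Ikzf5 (2234 and 2327) were within 2-fold with MNU in wild type.

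Subunits of the corepressors that Ikaros recruits were mostly within 2-fold. Of 16 measured NuRD and SIN3 subunits 1 was at least 2-fold lower with MNU in wild type and 0 higher, with a median log2 difference of 0.30. The lower gene was Chd3, a chromatin remodelling ATPase, at 7039 in vehicle wild type, 1331 in MNU wild type, 6994 in vehicle knockout and 9067 in MNU knockout. Mta3, another NuRD subunit, was 1.99-fold higher and Sin3b 1.61-fold higher, beside 1.65-fold for Ikzf1. Of 11 measured E protein cofactors and LMO2 partners 2 were lower and 0 higher (median -0.23). They were Cbfa2t3 (ETO2), a corepressor of E proteins, at 3208 without and 966 with MNU, and Gata3, the T-lineage factor, at 2910 and 1305. In knockout mice 0 of these 27 genes differed 2-fold with MNU, against 3.28% of all genes. In wild type 14.2% of all genes were at least 2-fold lower with MNU and 7.14% higher.

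Genes that E proteins are known to activate or bind in thymocytes did not share 1 direction. Of 14 measured, 4 passed 2-fold upwards and 4 downwards with MNU in wild type, against 7.14% and 14.2% of all genes. The median log2 difference of the 14 was -0.82. Il7r, the IL-7 receptor chain, was 14.7-fold lower and Dntt, the polymerase that adds bases at receptor gene joins, was 13.6-fold lower. Notch1 was 9.64-fold higher and Ptcra, which encodes the invariant chain of the pre-T-cell receptor, was 4.11-fold higher. Of 11 measured genes that Ikaros is known to restrain in thymic lymphoma, 8 were higher and 2 lower in MNU wild type (median 1.92), while Ikzf1 itself was 1.65-fold higher there. The NOTCH targets Dtx1 (37.9-fold) and Heyl (8.14-fold) were among them, as was Notch3 (7.45-fold), and most of that list are NOTCH targets as well. Notch1, Ptcra and Hes1 were on both that list and the E protein list. They count as higher in both, so the counts of these lists are not separate observations. In knockout mice 4 of the 11 were lower with MNU (median -0.77), but 1 of 11 with the share subtracted (median -0.13). Before subtraction 3.28% of all genes differed 2-fold in either direction in that comparison. Of 12 genes tied to LMO2-driven self-renewal of thymocytes only 3 were measured, 1 of them Lyl1. Bcl2, the survival gene, was 8.12-fold lower and Cd44, a progenitor surface receptor, 2.42-fold higher with MNU in wild type.

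Genes with patterns most like those of Id3, Tcf4 and Ikzf2, the members with the widest range, were found by Euclidean distance between log2(value + 10) profiles centred on each gene's mean over the 4 libraries, among 10471 genes with a mean of at least 100. The nearest to Id3 were Gimap6 (distance 0.121), a GTPase gene of lymphocytes, Dgka (0.132), a diacylglycerol kinase gene of T cells, and Nmnat1 (0.159), an NAD synthesis gene. Gimap6 stood at 7094, 1003, 5228 and 7436 in vehicle wild type, MNU wild type, vehicle knockout and MNU knockout. Within a distance of 0.5 lay 61 genes for Id3, 735 for Tcf4 and 1198 for Ikzf2, so the patterns of Tcf4 and Ikzf2 were common ones. The nearest genes were Snx14, Lancl1 and Dlgap4 for Tcf4, at distances of 0.0236 to 0.0707, and Ankrd50, Mtmr14 and Rbm38 for Ikzf2, at 0.0589 to 0.0817.

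**Figure D4:**
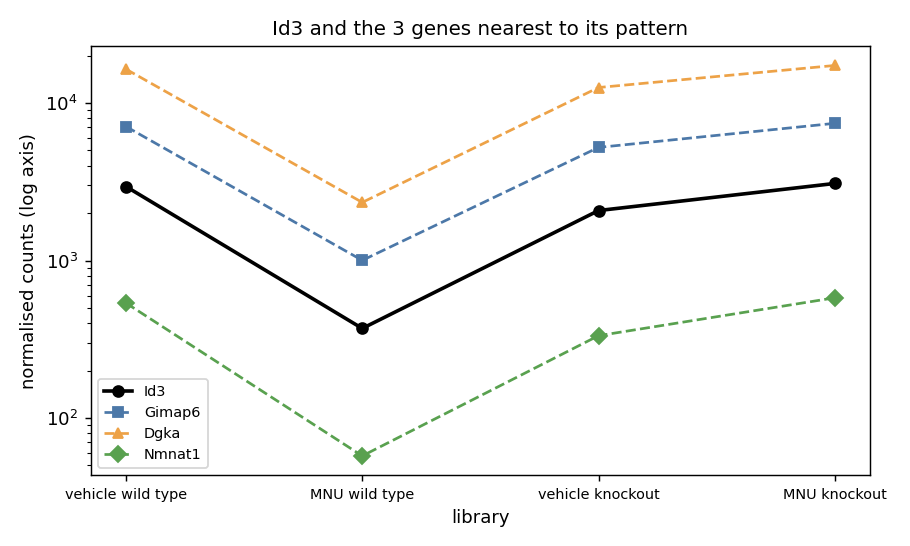
Normalised counts (log axis) of Id3 and of the 3 genes nearest to its pattern in the 4 libraries, where lines join the points of a gene only to guide the eye. All 4 genes are lowest in MNU wild type, from 57.5 for Nmnat1 to 2340 for Dgka, and Id3 stands at 371 there.

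**Figure D5:**
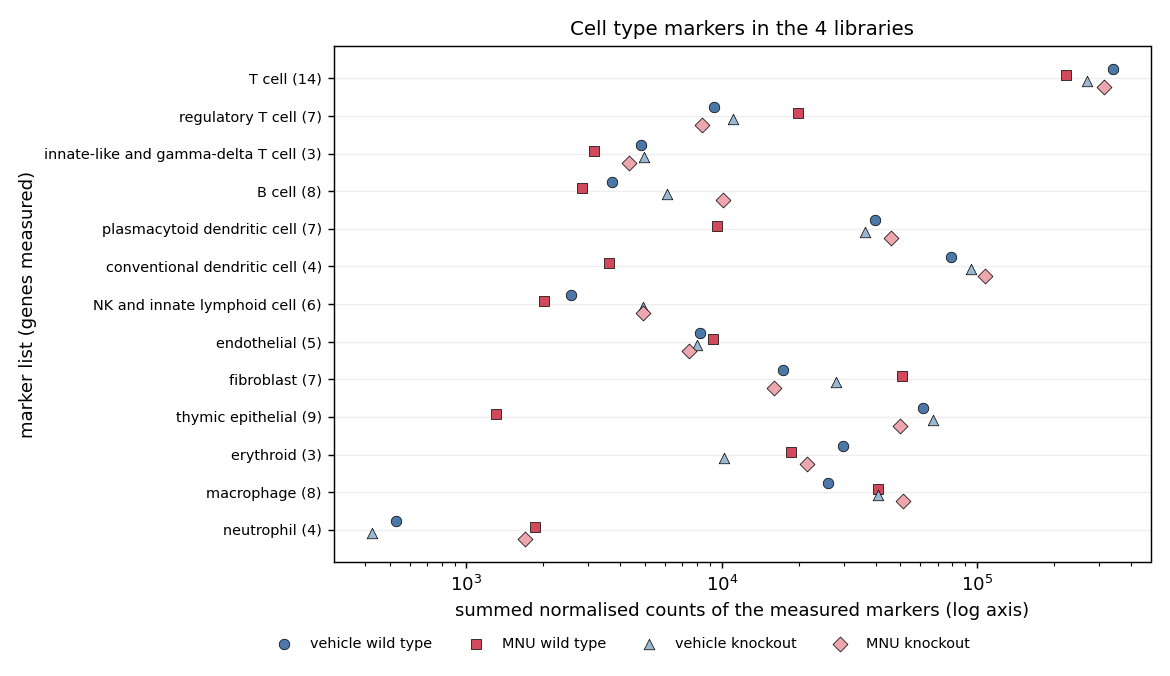
Summed normalised counts (log axis) of the measured markers of 13 cell types in the 4 libraries, with the number of markers measured in parentheses. Thymic epithelial markers are at 1305 in MNU wild type against at least 49937 elsewhere. NK and innate lymphoid markers are at 4903 and 4920 in the knockouts against 2012 and 2563 in the wild types. Most of the 2012 in MNU wild type is Gzma, at 1491.

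The plot of marker sums sets the members beside the make-up of each thymus. Fibroblast markers (7 of 8 measured) summed to 17387 in vehicle wild type and 50607 with MNU, with 5 at least 2-fold higher. Conventional dendritic cell markers (4 of 9) summed to 78879 and 3610, and neutrophil markers (4 of 8) to 530 and 1849. Erythroid markers (3 of 8) summed to 29763 and 18645, but Epor among them was higher with MNU, at 53.5 and 416. Innate-like and gamma-delta T cell markers (3 of 8) summed to 4826 and 3156. Most of that sum was Cd1d1, at 3539 and 1763, while Blk was 3.13-fold higher with MNU, so these markers did not share 1 direction. Regulatory T cell markers (7 of 9) summed to 9289 and 19959. The largest part of the sum with MNU was Il2ra, at 2661 and 10124, named here after its values were seen. Il2ra is also on the list of genes restrained by Ikaros. Of the 7, 2 were at least 2-fold higher with MNU and 2 lower, so the sum does not stand for a shared direction. T cell markers summed to 341699 and 223517, a ratio of 0.654. The ratio was 0.0213 for thymic epithelial and 0.0458 for conventional dendritic markers, beside 0.126 for Id3. Most of the conventional dendritic sum was Cd74 and H2-Ab1, at 53719 and 24103 in vehicle wild type and 1418 and 1837 in MNU wild type. Itgax and Batf3, the other conventional dendritic markers measured, were 3.07-fold and 2.46-fold lower with MNU. They are named here after their values were seen. The part of these cells in the levels of the 10 genes was not tested.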

How the data were processed

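Gene-level RNA-seq values of 4 thymus libraries, 1 per group, were used, with groups taken from the labels. The deposited values are a signal per gene that the authors call normalised counts. They were not whole numbers, and the sources used here do not give the scaling method, counter or annotation. The submitters' processing notes name TopHat2 2.0.8b, edgeR and mm9 without roles. Counting error could not be computed from such values, so no interval is given, and the lowest members (Lyl1 and Lmo2) are the least precise.

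Differences were taken on log2(value + 10) over 10587 genes with a mean of at least 10 (11 removed), and called at 2-fold. Ratios are of the values themselves. Alternatives were pseudocounts of 2.5 and 40, no filter or a mean of 100, 2 other scalings, a 4-fold threshold, replacement of a library, and subtraction of the wild-type MNU share. Subtraction for genotype order and the second gene length were added after the data were seen. Transcript lengths came from GENCODE vM21 and promoters from RefSeq. Members and lists were chosen with earlier results of these data known. Named genes were the members, up to 4 genes per pathway list and 2 per marker list with the largest difference between the wild-type libraries, and the 3 nearest patterns. Python 3.11.15 and pandas 2.3.3 were used.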

Additional observations from a re-analysis of the deposited data

Results flagged for a closer look

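Ikzf2, Tcf4 and Id3 each had MNU differences of opposite sign in the 2 genotypes, at least 2-fold in wild type. The log2 difference of Id3 was -2.96 in wild type and 0.57 in knockout. That of Tcf4 was -1.40 and 0.10, and that of Ikzf2 was -1.06 and 0.47. With 1 library per group the difference between genotypes was not tested. With the wild-type MNU share subtracted from vehicle knockout the knockout difference was 0.37 for Id3, -0.05 for Tcf4 and 0.39 for Ikzf2, so that Tcf4 then had the same sign in both genotypes.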

How the results depend on the processing

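No paired analysis was possible because each group was 1 library and the labels carry no replicate numbers. At a 4-fold threshold 1 of the 10 genes, in place of 3, was called for MNU in wild type and 1, in place of 3, for MNU knockout against MNU wild type. All-gene counts were then 945 in place of 2256 for MNU in wild type, 83 in place of 347 for MNU in knockout, 96 in place of 312 for knockout against wild type under vehicle, 991 in place of 2366 under MNU, and 56 in place of 283 for MNU knockout against vehicle wild type. With vehicle wild type in place of MNU wild type, the MNU knockout had 0 of the 10 genes beyond 2-fold and 283 genes in all. The log2 differences were then -0.042 for Ikzf2, 0.039 for Tcf4 and 0.065 for Id3, since that alternative removes the library in which they were low. The median of the genes restrained by Ikaros was then -0.36. The 4-fold threshold aside, the alternatives gave 350 values for the 10 genes, most of them for differences under 2-fold. Of the 350 values, 347 kept their side of the 2-fold rule and, where called, their sign. The other 3 are those just given. The 350 include values from the filter settings, which kept all 10 genes and could not move their differences, so that agreement was fixed in advance. Each replacement of a library gave the comparison of MNU knockout to vehicle wild type again. The count of 347 is therefore no measure of robustness. The 2 other scalings moved log2 differences of the 10 genes by at most 0.0191 (median of ratios) and 0.0342 (upper quartile). Depth limits Lyl1 and Lmo2 most, at 179 to 480 units.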
